A study of Mus musculus with 40 samples.

Results

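Cells grown out of 3 N2.3 tumours were compared with cells grown out of 3 N2.2 tumours, 6 of the 40 libraries of a serial passaging series. The members were taken by the names of the columns, N2.3 against N2.2, and every one of the 6 was used. All 6 libraries are poly(A) RNA from YUMM1.7, a mouse melanoma line of C57BL/6 origin, after transplantation into mice, dissociation of the tumour and 1 to 3 passages in culture. Letters A to C name different tumours of 1 passage, and neither the meaning of N2 nor the strain of the mice appears in the labels. Both groups derive from 1 cell line and hold 1 passage each, so that p-values do not cover repeats of the passaging. The main p-values use 1 spread estimated within all 11 groups of the 40 libraries. These take in cell cultures and second libraries of the same tumours.

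The measured unit is the annotated repeat copy. Repeats are remnants of mobile DNA, among them LTR retrotransposons and endogenous retroviruses, long and short interspersed elements (L1, B1, B2) and DNA transposons. Young copies can be transcribed from their own promoters, while most copies lie inside introns or the untranslated ends of host transcripts and are read through by the host gene. In mammalian cells the level of young copies is held down by DNA methylation and by histone methylation that KRAB zinc finger proteins direct to them. Each value, called signal here, is the number of reads in a copy divided by 1 factor per library. Signal was read at single copies, summed over subfamilies, and summed over the exon copies of each host gene. A host gene without an exon copy has no value, and a value is not the level of a whole transcript.

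Recovered reads in repeat copies were 2272989, 2448523 and 2507112 in tumours A, B and C of N2.3, against 2976730, 2317535 and 1901295 in N2.2 A, B and C. Of the markers of other cells, Ptprc, Cd3e and Pecam1 had 0 in each of the 6 libraries, and the fibroblast collagen Col1a1 reached 2.09 at most. The fibroblast list was not low as a whole. Its summed signal, nearly all from Pdgfra, was 459, 515 and 535 in N2.3 against 362, 353 and 424 in N2.2. In the T cell and macrophage lists 3 of 6 and 5 of 8 genes hold an exon copy and none passed the filter on low values, and no gene of the B cell and keratinocyte lists holds one. The melanocyte genes Tyr, Mlana and Oca2 were at 0 as well. Since 7 of 17 listed melanocyte genes hold an exon copy, and 1 of them passed the filter (Gpnmb, 67.8, 72.6 and 51.5 in N2.3 against 54.0, 36.8 and 27.2 in N2.2), the label of melanoma can hardly be checked on these values.

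Library C of N2.3 stood apart from every other library. A copy was counted as departing when its signal lay at least 4-fold (2 on the log2(signal + 1) scale) above both, or below both, of the other 2 libraries of the group. In N2.3 C, 387 of 33215 tested copies lay above (1.17%) and 911 below (2.74%). Tumour A of N2.3 had 77 above (0.232%) and 320 below (0.963%), and tumour B had 55 (0.166%) and 237 (0.714%). Among the N2.2 libraries, A had 45 above (0.135%) and 121 below (0.364%), B had 174 (0.524%) and 571 (1.72%), and C had 52 (0.157%) and 242 (0.729%). Over host genes N2.3 C had 114 above (1.56%) and 172 below (2.35%) of 7308. N2.3 A had 5 (0.0684%) and 25 (0.342%) and N2.3 B had 7 (0.0958%) and 27 (0.369%). N2.2 A had 9 (0.123%) and 11 (0.151%), N2.2 B had 32 (0.438%) and 75 (1.03%), and N2.2 C had 4 (0.0547%) and 22 (0.301%). The median absolute difference of N2.3 C from the mean of its mates was 0.61 on the log2 scale over copies, against 0.47 in A and 0.44 in B. No test was made of these departures. N2.2 B came second among the 6.

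**Figure D1:**
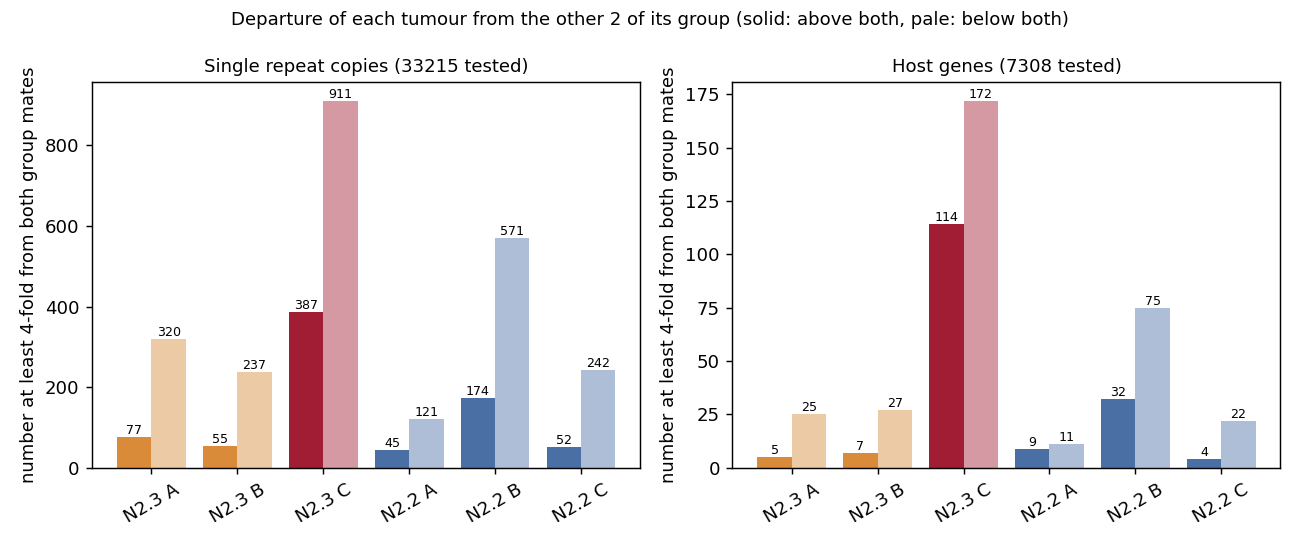
Number of repeat copies (left) and host genes (right) in which a library lay at least 4-fold above both (solid bars) or below both (pale bars) of the other 2 libraries of its group; the vertical axis counts features and N2.3 is on the left. N2.3 C has the tallest bars in both panels, 387 and 911 copies and 114 and 172 host genes.

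Over all 40 libraries, N2.3 C lay outside the range of the other 39 in 1036 of 7308 host genes (14.2%), the largest count of any library, and the next was 733 genes (10.0%) in Balb/c-2 rep2 C. N2.3 A and B had 237 and 195 such genes, and N2.2 A, B and C had 159, 296 and 230. In 7 host genes N2.3 C had a signal of at least 50 while no other library passed 10, and in 2 it was at 0 while every other library had at least 20. Some of the 7, Klhl41 and Myom3 among them, passed the filter on low values only through C, so that this count is a description. One other library, Balb/c-2 rep2 B, had 1 gene high in it alone by the first rule, and no other library had a gene that met the second.

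Few features were called between the groups. With all 3 N2.3 tumours, limma called 4 of 33215 copies at an adjusted p under 0.05 (0.012%; 1 higher, 0.00301%, and 3 lower, 0.00903%), 3 of 1004 subfamilies (0.299%, all higher) and 5 of 7308 host genes (0.0684%; 4 higher, 0.0547%, and 1 lower, 0.0137%). At an unadjusted p under 0.05 there were 2732 copies, 84 subfamilies and 829 host genes. Without N2.3 C the counts were 8 copies (0.0241%), 0 subfamilies with 72 at an unadjusted p under 0.05, and 3 host genes (0.0411%), and of the 12 features called with it only Samd5 was among them. The number of called copies was 29 without N2.3 A and 1 without N2.3 B, against 0, 33 and 0 without N2.2 A, B and C. It was 27 with edgeR and 65 with DESeq2, and these took in all 4 copies. Host genes called numbered 6 without N2.3 A and 19 without N2.3 B, against 1, 21 and 1 without N2.2 A, B and C, and subfamilies 4 and 3, against 0, 2 and 0.

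Host gene Gm37691, a predicted gene on chromosome 1 (GENCODE M21, 193281271 to 193283843, + strand), had 16.1, 15.0 and 167 in tumours A, B and C of N2.3, against 0 in all 3 N2.2 libraries. Every N2.3 library lay above every N2.2 library, and C was the highest. Its N2.3 mean of 66.1, raised by C, was at least 26.0-fold higher than a floor of 3 reads per N2.2 library (limma adjusted p = 0.00349). A and B averaged 15.5. The other 34 libraries had a median of 0.89 and at most 11.5. Gm37691 thus passed the filter on low values largely through N2.3 itself, which limits what its call can show. It was called in 5 of the 6 fits that left out 1 library, and the adjusted p was 0.0633 without N2.3 C. Samd5, which encodes a protein with a sterile alpha motif, rose as well, with 108, 114 and 43.9 in N2.3 against 6.59, 4.18 and 2.09 in N2.2 (log2 fold change 4.06, SE 0.82, adjusted p = 0.0345). Here A and B lay above C, and the adjusted p was 0.0496 without C. The call of Samd5 was lost with edgeR (adjusted p = 0.0906), the other 4 host genes being called by edgeR and all 5 by DESeq2. With TMM scaling (adjusted p = 0.0572 for Samd5) and with intron share as a covariate (0.0560), limma called Gm37691 alone of the 5. The other 34 libraries spanned 6.77 to 2055, so that N2.2, not N2.3, held the lowest values of the series.

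Sde2, which encodes a nuclear protein with roles in splicing and in the replication stress response, had 1101, 1092 and 1420 in N2.3 against 718, 596 and 776 in N2.2 (0.79, SE 0.16, adjusted p = 0.0345). The fourth gene that rose, Nat8f4 of the acetyltransferase family Nat8, stayed low at 9.32, 10.3 and 17.4 in N2.3 against 1.98, 0.837 and 0 in N2.2 (2.87, SE 0.61, adjusted p = 0.0494). Its family has near-identical copies, and how reads shared between them were counted is not stated. Hspa4l, a chaperone of the Hsp110 family, had 750, 714 and 472 in N2.3, against 1634, 1236 and 1679 in N2.2 (-1.25, SE 0.25, adjusted p = 0.0345). For Hspa4l the other 34 libraries had a median of 718 and at most 1216. Every N2.2 library lay above them, while N2.3 A and B lay near that median. In Sde2, Nat8f4 and Hspa4l the groups did not overlap, and C was the N2.3 library farthest from N2.2. Without C the adjusted p was 0.168 for Sde2 and 0.173 for Nat8f4 and Hspa4l, with log2 fold changes of 0.66, 2.61 and -1.04. Over the 6 fits that left out 1 library, the adjusted p ran from 0.0388 to 0.283 for Samd5, from 0.0259 to 0.168 for Sde2, from 0.0486 to 0.283 for Nat8f4 and from 0.0217 to 0.283 for Hspa4l.

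**Figure D2:**
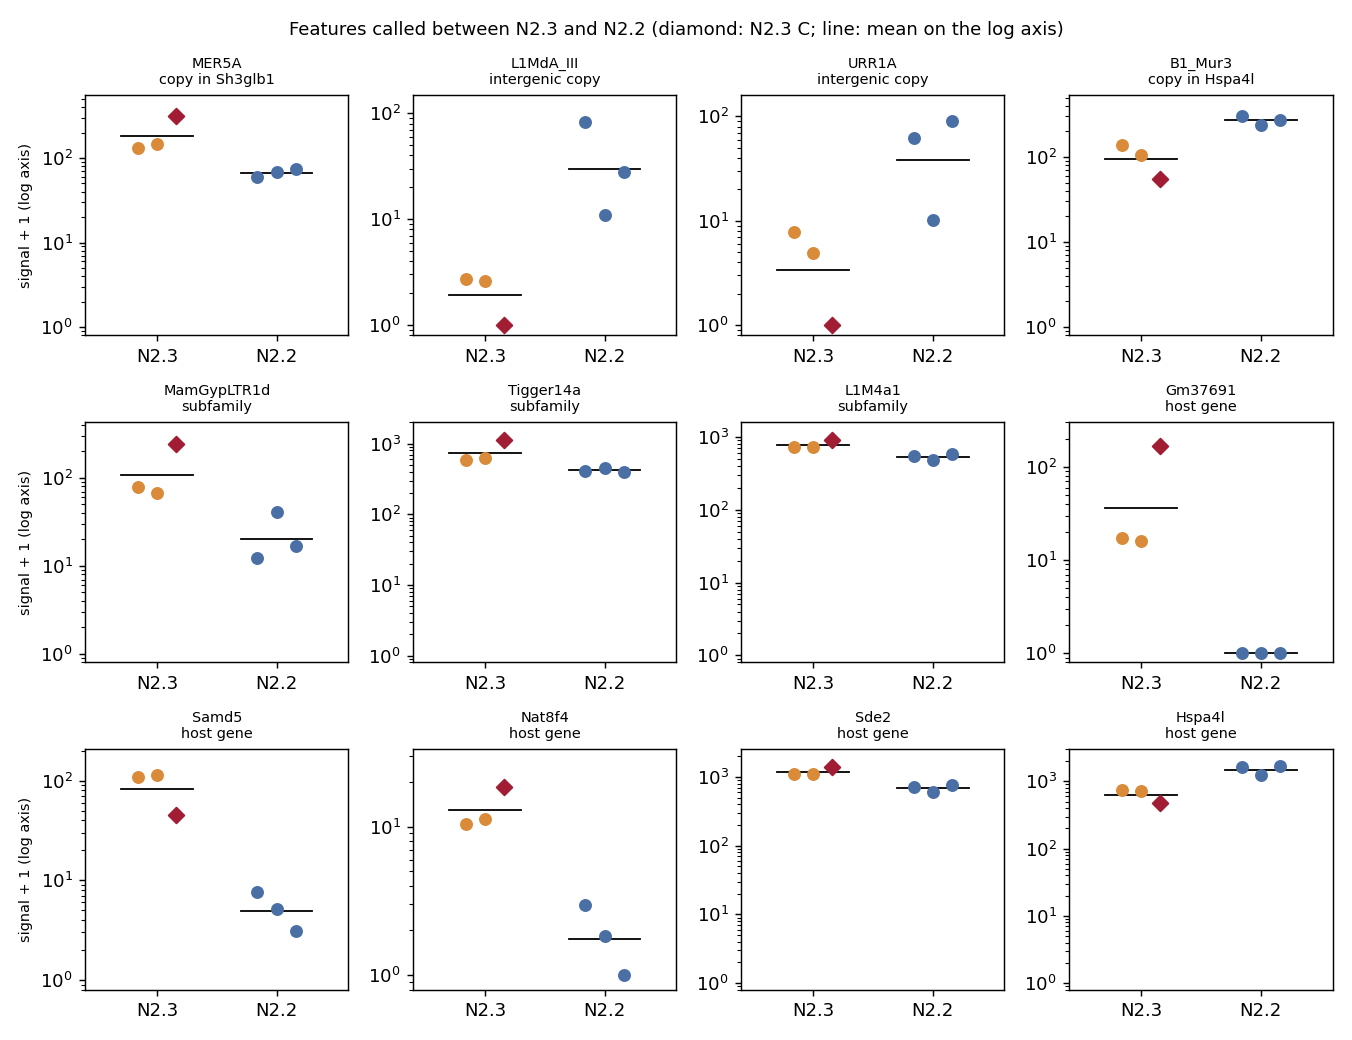
Signal + 1 (log axis) of the 12 features called between N2.3 (left, diamond for C) and N2.2 (right), 1 point per library and a line at the mean on the log axis. N2.3 C is the N2.3 library farthest from N2.2 in each panel but that of Samd5, where it had 43.9 against 108 and 114 in A and B.

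Among single copies, 2 of the 4 called ones lay in the 3' UTR of a host gene. MER5A, a DNA transposon copy in the 3' UTR of Sh3glb1 (mm10 chr3:144684948-144685094; the gene encodes endophilin B1, a membrane-curving protein), had 131, 145 and 311 in N2.3 against 58.6, 66.9 and 74.2 in N2.2 (1.44, SE 0.27, adjusted p = 0.0418). For MER5A the other 34 libraries had a median of 137 and spanned 68.0 to 202. N2.3 A and B lay near that median, C above the span and N2.2 A and B below it. A B1_Mur3 copy in the 3' UTR of Hspa4l, on chromosome 3, had 137, 106 and 54.5 in N2.3 against 300, 237 and 275 in N2.2 (-1.53, SE 0.29, adjusted p = 0.0418). For this B1_Mur3 copy the other 34 libraries had a median of 103 and at most 210, and every N2.2 library lay above them. The other two were intergenic on chromosome 1. L1MdA_III, an L1 copy at chr1:44383129-44387713, had 1.69, 1.58 and 0 in N2.3 against 82.4, 10.0 and 27.2 in N2.2 (-3.95, SE 0.75, adjusted p = 0.0418). URR1A at chr1:159389538-159389696 had 6.78, 3.94 and 0 in N2.3 against 61.3, 9.20 and 88.8 in N2.2 (-3.51, SE 0.64, adjusted p = 0.0418). The medians over the other 34 libraries were 16.1 for L1MdA_III and 33.8 for URR1A, above every N2.3 library. In none of the 4 did the groups overlap, and in all of them C was the N2.3 library farthest from N2.2. Without C the adjusted p lay between 0.142 and 0.209, and each copy was called in 2 of the 6 fits that left out 1 library.

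Each of the 3 called subfamilies drew its difference from 1 or a pair of host genes. MamGypLTR1d had 77.1, 65.5 and 239 in N2.3 against 11.2, 40.2 and 15.7 in N2.2 (2.41, SE 0.53, adjusted p = 0.0270), and 1 copy in the 3' UTR of Tmem8b held 99.7% of the difference between group means. Tigger14a had 579, 622 and 1126 in N2.3 against 414, 453 and 400 in N2.2 (0.81, SE 0.17, adjusted p = 0.0270). For Tigger14a the other 34 libraries spanned 463 to 830 with a median of 594. Every N2.2 library lay below that span, N2.3 C above it and N2.3 A and B near the median. Of the Tigger14a signal in C, 576 came from 1 copy in the 3' UTR of Casq2, a muscle gene, and a copy in the 3' UTR of Emc3 held 44.0% of the difference. L1M4a1 had 734, 727 and 891 in N2.3 against 553, 484 and 572 in N2.2 (0.54, SE 0.12, adjusted p = 0.0310), where the largest shares, 68.2% and 35.4%, lay in 2 copies in the 3' UTR of Sde2. With copies outside exons alone, limma called 0 of 916 subfamilies (33 at an unadjusted p under 0.05). Without C none of the 3 was called (adjusted p = 0.385 each). For MamGypLTR1d and L1M4a1 the other 34 libraries spanned 5.86 to 131.6 and 368 to 754. The N2.2 libraries lay within these spans and N2.3 C above them.

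The young and abundant families did not pass the test. IAPEz-int, the internal part of the intracisternal A particle, had 16159, 11943 and 8764 in N2.3 against 19229, 7209 and 19817 in N2.2 (-0.23, SE 0.33, adjusted p = 0.921). The 2 groups overlapped, and N2.2 B was the lowest library of the 6. MMVL30-int, of the VL30 retrotransposons, had 36012, 38332 and 19961 in N2.3 against 23396, 29701 and 30603 in N2.2 (0.12, SE 0.40, adjusted p = 0.980), with C the lowest and A and B the highest of the 6. The other 34 libraries had a median of 15445 and reached 45262, so C lay above most of them. For MERVL-int, whose expression marks the early embryo, the values were 1420, 1287 and 2171 in N2.3 against 1167, 1134 and 1226 in N2.2 (0.43, SE 0.18, adjusted p = 0.563). The groups did not overlap for MERVL-int, and C lay above the other 34 libraries too, which reached 1502.

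RLTR4_MM-int, a sequence of the murine leukaemia virus type, had 8218, 8661 and 10789 in N2.3 against 8103, 8631 and 7860 in N2.2 (adjusted p = 0.814). Of the short interspersed elements, B1_Mm had 18611, 19602 and 20035 in N2.3 against 20938, 19306 and 20198 in N2.2 and B2_Mm2 had 37017, 37271 and 42444 against 40053, 40471 and 40298 (log2 fold change -0.05 each; adjusted p = 0.893 and 0.946). All 15 tested B1 subfamilies had a log2 fold change below 0 with a median of -0.05, against a median of -0.02 over all subfamilies, and after TMM scaling 13 of the 15 did. In 5 of the 15 every N2.3 library lay below every N2.2 library (33.3%), against 10.3% of all subfamilies. Of the 19 repeat lists, 18 had no called member by limma, edgeR or DESeq2. The list of DNA transposons was the exception, with Tigger14a called by limma and Tigger14a and Zaphod by edgeR and by DESeq2. At an unadjusted p under 0.05 there were 12 of 85 DNA transposons, 7 of 91 MaLR and 6 of 108 older L1 subfamilies, against 84 of all 1004 subfamilies. The share was thus below that of all subfamilies for MaLR and older L1, and above it for DNA transposons. The other lists were shorter and had no more than 2 each.

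Other subfamilies whose groups did not overlap are given as values, since none passed limma. UCON88 had 67.8, 67.8 and 182 in N2.3 against 16.5, 22.6 and 14.6 in N2.2 (adjusted p = 0.0726), and edgeR and DESeq2 called it. MARE10 had 727, 549 and 343 in N2.3 against 1152, 1020 and 1010 in N2.2 (adjusted p = 0.0798). RLTR35B_MM had 35.6, 34.7 and 35.6 in N2.3 against 90.9, 51.0 and 107 in N2.2 (adjusted p = 0.443), with A, B and C alike. Charlie24 (99.1, 120 and 62.8 in N2.3 against 26.4, 37.6 and 51.2 in N2.2) and RLTR13D3 (89.0, 119 and 250 against 26.4, 72.8 and 49.1) lay higher. L1MEg2 (16.1, 18.9 and 19.7 in N2.3 against 34.3, 39.3 and 32.4 in N2.2), Charlie15b, LTR107_Mam and ERVB4_1B-I_MM lay lower, and in none of these 6 was the adjusted p under 0.413. Groups of this kind were common: in 8.07% of subfamilies all N2.3 libraries lay above all N2.2 libraries, and in 10.3% below.

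The largest differences that missed the threshold were set by C to varying degree. The RLTR20A4 copy that makes up the signal of Igf2, an imprinted fetal growth factor, had 333, 231 and 17104 in N2.3 against 13.8, 125 and 15.7 in N2.2 (5.13, SE 1.13, adjusted p = 0.0781 over copies). It lies in the 3' UTR on chromosome 7. A and B lay above N2.2 as well, by less than 2-fold over N2.2 B in the case of B, and the estimate was 3.15 without C. The other 34 libraries reached 17.4. Lgr6, a receptor for R-spondins, had 59.3, 40.2 and 454 in N2.3 against 3.95, 2.51 and 1.05 in N2.2 (4.99, SE 1.18, limma adjusted p = 0.0772 over host genes; 3.92 without C). Both count tools called Lgr6 (edgeR adjusted p = 0.0378, DESeq2 0.0109) and the Igf2 copy (edgeR adjusted p = 0.00665, DESeq2 0.0106). Its groups did not overlap with C left out either.

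An MMTV-int copy at chr6:68242385-68252285, an intergenic provirus of the mouse mammary tumour virus type, had 0.847, 1.58 and 332 in N2.3 against 0 in all 3 N2.2 libraries (adjusted p = 0.267), while the other 34 libraries reached 3.44. It was called by edgeR (adjusted p = 0.0249), and DESeq2 gave it no adjusted p. The copy passed the filter on low values only through C. In the opposite direction, Pcyt2, an enzyme of phosphatidylethanolamine synthesis, had 84.7, 119 and 1.51 in N2.3 against 296, 183 and 336 in N2.2 (-3.16, SE 0.75, adjusted p = 0.0772). Gm8991 had 26.3, 5.52 and 1.51 in N2.3 against 37.6, 36.8 and 95.1 in N2.2 (limma adjusted p = 0.0772; called by DESeq2 at 0.0390 and not by edgeR at 0.121). In the predicted gene Gm5641 C was like its mates, with 10.2, 6.31 and 13.6 in N2.3 against 65.9, 62.7 and 86.7 in N2.2 (-2.76, SE 0.88, adjusted p = 0.184).

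Copies near one another lay lower together at an intergenic stretch of chromosome 1. L1MdFanc_II at chr1:7039765-7044572 had 84.7, 8.68 and 0 in N2.3 against 257, 96.2 and 369 in N2.2 (-4.48, SE 1.15, adjusted p = 0.154). An ERVB2_1-I_MM copy about 10 kb further on had 57.6, 2.37 and 0 against 184, 63.6 and 219 (-4.57, SE 1.20, adjusted p = 0.154). Of 19 tested copies within 10 kb of these, 17 were at 0 in C and 10 were lower in all N2.3 than in all N2.2 libraries. The 19 include the 2 named, which were chosen because their groups did not overlap, so the count is a description (over all copies, 8.88% were lower in this way and 7.23% higher). They share a location and may share a transcript, so that they count as 1 observation. L1MdF_IV in an intron of Gm11884 on chromosome 4 had 169, 120 and 2.27 in N2.3 against 522, 202 and 672 in N2.2 (adjusted p = 0.328).

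Copies in introns carried 23.8%, 23.5% and 27.7% of the signal in N2.3 A, B and C, against 28.0%, 26.5% and 27.3% in N2.2. The mean was 24.99% ± 2.31 in N2.3 and 27.3% ± 0.770 in N2.2 (SD, n = 3 each; exact two-sided permutation p = 0.30, where 0.10 is the smallest 3 against 3 allow). A and B lay below every N2.2 library and C among them. The log2 fold change had a median of -0.16 among 14171 intron copies and of 0.08 among 8200 copies in 3' UTRs, against -0.05 over all tested copies. TMM scaling moved that last median to 0.05, so a shift of this size depends on the scaling.

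Among the gene lists, the one whose members lay on 1 side was proliferation. All 19 tested genes had a log2 fold change below 0, with a median of -0.54 against 0.01 over all host genes, and -0.65 without C; TMM scaling kept all 19 below 0. In 10 of the 19 every N2.3 library lay below every N2.2 library (52.6%), against 9.11% of all host genes. No member was called by limma, edgeR or DESeq2. By limma 7 of the 19 had an unadjusted p under 0.05, all lower, against 829 of 7308 host genes, of which 362 were lower. Foxm1, a transcription factor of the G2/M programme, had 362, 371 and 356 in N2.3 against 766, 567 and 702 in N2.2 (-0.89, SE 0.25, adjusted p = 0.134). Tyms, thymidylate synthase, had 179, 129 and 108 in N2.3 against 286, 299 and 295 in N2.2 (-1.11, SE 0.33, adjusted p = 0.153), and Mcm6, a subunit of the replicative helicase, had 602, 526 and 554 against 958, 940 and 837 (-0.70, SE 0.27, adjusted p = 0.282). The 3 N2.3 tumours were close to each other for Foxm1 and Mcm6, C included. Top2a, the topoisomerase of mitotic chromosomes, overlapped between the groups, with 836, 696 and 1115 in N2.3 against 1253, 1241 and 1096 in N2.2.

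The list of genes that silence retroelements had 24 tested members, none called by limma (3 at an unadjusted p under 0.05, all lower), edgeR or DESeq2. Those 3 of 24 were near the share over all host genes, 829 of 7308. Its median was -0.23, and 7 members were lower in all N2.3 than in all N2.2 libraries (29.2%), against 9.11% of all host genes. Cbx5, the heterochromatin protein HP1 alpha, had 3901, 3353 and 2105 in N2.3 against 5494, 5414 and 4829 in N2.2 (-0.79, SE 0.22, adjusted p = 0.134). Hells, a chromatin remodeller needed for DNA methylation of repeats, had 267, 226 and 228 in N2.3 against 500, 485 and 434 in N2.2 (-0.97, SE 0.35, adjusted p = 0.230), and its groups did not overlap. Setdb1, the histone methyltransferase recruited by KRAB zinc finger proteins, overlapped at 147, 167 and 268 in N2.3 against 210, 184 and 198 in N2.2. Zfp809, which targets leukaemia virus sequences, overlapped as well (610, 528 and 457 against 476, 578 and 472).

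Interferon response genes had no called member among 35 tested by limma (1 at an unadjusted p under 0.05, lower), edgeR or DESeq2, with a median of 0.28. Over all host genes 829 of 7308 had an unadjusted p under 0.05. Eif2ak2, the kinase PKR, had 2590, 2491 and 2012 in N2.3 against 2464, 2117 and 2566 in N2.2, and Samhd1, a dNTPase that restricts retroviruses, had 772, 702 and 1275 against 1023, 718 and 1105. Both overlapped. Antigen presentation had 12 tested members, 0 called by limma, edgeR or DESeq2 and 1 at an unadjusted p under 0.05. In 3 of the 12 every N2.3 library lay above every N2.2 library (25%, against 10.3% of all host genes). In 1 every N2.3 library lay below (8.33%, against 9.11%). H2-D1, a class I heavy chain with close relatives, had 5903, 7480 and 3998 in N2.3 against 2730, 4283 and 4471 in N2.2, and Tapbp, its chaperone tapasin, 3954, 5051 and 4975 against 3360, 3237 and 4013. Cd274, which encodes PD-L1, was the member whose groups stood farthest apart in relation to their error (37.3, 31.6 and 37.9 in N2.3 against 9.88, 7.53 and 12.5 in N2.2; 1.76, SE 0.63, adjusted p = 0.231).

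The remaining lists were small. Their counts at an unadjusted p under 0.05 stand beside 829 of 7308 over all host genes. Of 9 tested imprinted genes limma called 0 (2 at an unadjusted p under 0.05), and edgeR and DESeq2 called Igf2 alone. Impact, a translation regulator, had 517, 588 and 547 in N2.3 against 240.5, 343 and 284 in N2.2 (0.94, SE 0.28, adjusted p = 0.153), with no overlap and C among its mates. Of 5 hypoxia genes 0 were called by any tool and 1 had an unadjusted p under 0.05; Egln3, a prolyl hydroxylase, had 577, 757 and 285 in N2.3 against 292, 358 and 279 in N2.2. Pdk1, a mitochondrial kinase, had 635, 669 and 436 against 459, 757 and 350. Of 4 mesenchymal and neural crest genes 0 were called by any tool and 0 had an unadjusted p under 0.05, with Zeb1 and Zeb2 at 211 to 331 in N2.3 and 237 to 346 in N2.2. The fibroblast and melanoma gene Pdgfra had 459, 515 and 535 in N2.3 against 362, 353 and 422 in N2.2 (adjusted p = 0.729).

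**Figure D3:**
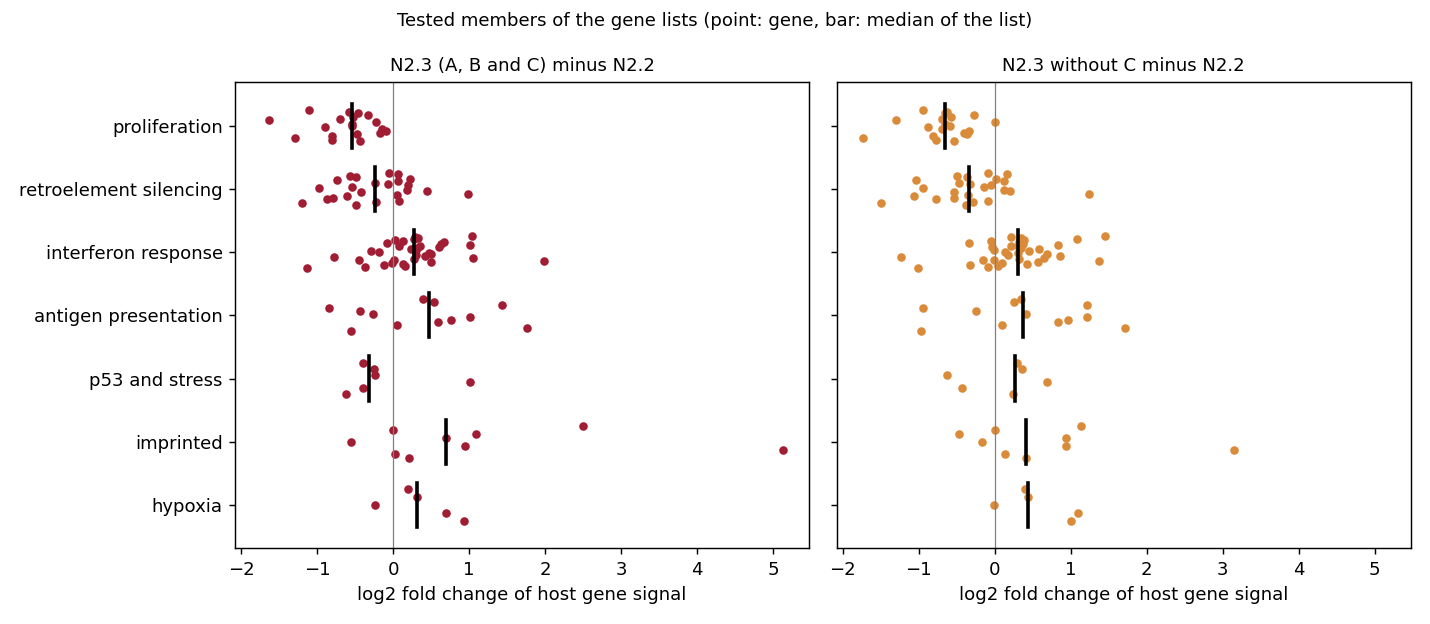
Log2 fold change of host gene signal for each tested member of 7 gene lists (point) and the list's median (bar), N2.3 minus N2.2 with all tumours (left) and without N2.3 C (right). Every proliferation gene lies left of 0 on the left, and the median of the p53 and stress list changes side, from -0.32 with C to 0.27 without it.

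What set tumour C of N2.3 apart was first a set of genes of striated muscle. Klhl41, a kelch protein of the sarcomere, had 0, 0 and 794 in tumours A, B and C of N2.3, against 0 in each N2.2 library. C was at least 324-fold higher than a floor of 3 reads per library in A and B, and the other 34 libraries reached 3.06. Casq2, the calcium store protein calsequestrin 2, had 2.54, 0.789 and 576 in N2.3 against 0 in all N2.2 libraries. Myom3, a myomesin of the M-band, had 1.69, 0 and 395 in N2.3 against 0.659, 0 and 0 in N2.2. Outside C none of the 3 passed 6.24 in any library.

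The stretch of 250 bases before the start of 3 of these genes is shown because they were high in the same single library; capitals mark the E-box CANNTG, the letters that myogenic factors of the MyoD family bind (RefSeq, GRCm38.p6, + strand, 5' to 3').
Klhl41, chr2:69669870-69670119: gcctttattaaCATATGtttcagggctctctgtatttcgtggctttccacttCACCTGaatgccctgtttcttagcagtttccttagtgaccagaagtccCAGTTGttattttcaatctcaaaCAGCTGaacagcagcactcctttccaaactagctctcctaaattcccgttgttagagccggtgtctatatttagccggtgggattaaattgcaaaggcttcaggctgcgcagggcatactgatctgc
Casq2, chr3:102086165-102086414: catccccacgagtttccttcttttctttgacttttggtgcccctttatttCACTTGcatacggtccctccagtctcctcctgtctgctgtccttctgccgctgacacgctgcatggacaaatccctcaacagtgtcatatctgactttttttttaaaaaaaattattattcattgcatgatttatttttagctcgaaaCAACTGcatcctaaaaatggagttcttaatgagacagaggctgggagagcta
Myom3, chr4:135759465-135759714: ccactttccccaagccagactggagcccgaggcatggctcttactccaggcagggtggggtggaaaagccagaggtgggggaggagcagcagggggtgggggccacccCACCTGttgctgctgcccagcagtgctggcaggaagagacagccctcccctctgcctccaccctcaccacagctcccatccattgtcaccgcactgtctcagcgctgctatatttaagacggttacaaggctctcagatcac
Klhl41 holds 4 E-boxes, Casq2 holds 2 and Myom3 holds 1, while the same window of Myl4, also high in C alone, holds 0. The motif is its own reverse complement, so 1 strand covers both. Of 32841 mouse promoter windows of this length, 66.2% hold at least 1, 31.8% at least 2 and 3.84% at least 4. The form CAGCTG occurs 1 time in Klhl41 and in 4270 of all windows. A match is a description of the letters and not a binding site.

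Further muscle genes followed the same samples. Synpo2l, an actin-associated protein of heart and skeletal muscle, had 1.69, 0 and 484 in N2.3 against 1.98, 0 and 0 in N2.2. Cdon, a surface receptor that promotes myogenic differentiation, had 4.24, 2.37 and 965 against 5.93, 0 and 5.22, and it reached 49.0 in the other 34 libraries. Chrnd, Chrng and Chrna1 encode subunits of the muscle acetylcholine receptor, and in N2.3 C they had 471, 161 and 122. In N2.3 A and B they lay between 0 and 17.8, against 0 to 7.91 in N2.2. Chrna1 was not particular to C, since it reached 131.6 in the other 34 libraries. Chrnb1, the fourth subunit, had 89.0, 81.2 and 430 in N2.3 against 181, 149 and 241 in N2.2, so that it was present in every library, and it reached 391 elsewhere.

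A textbook list of 36 skeletal muscle genes, drawn up after these values had been seen, had 19 members with an exon copy, and C was the highest of the 6 libraries in 17 of them. Over all host genes with an exon copy this held for 4052 of 17685. A gene with 1 read in C alone counts too, and the list followed from genes seen high in C, so the count is a description. The summed signal of the 19 was 145, 129 and 3302 in N2.3 against 219, 183 and 261 in N2.2. Only 8 of them passed the filter on low values, some through the signal of C itself, so that no share of these 8 is given. Between the groups limma called none of the 8 (5 at an unadjusted p under 0.05, all higher), edgeR called Casq2 and DESeq2 called Myl4. The defining regulators Myod1 and Myog hold no exon copy here. Myl4, an embryonic myosin light chain, had 168 in C, Trim63, a ubiquitin ligase of muscle, had 96.2 and Des, the filament protein desmin, had 24.98, each with at most 3.35 in the other 5 libraries. Ttn, Ckm, Ryr1 and Myh8 had 0.757 to 1.51 in C, at most 2 reads. In bulk RNA, fewer cells of a type and less RNA per cell cannot be told apart, and whether C holds cells of another kind beside or in place of melanoma cells was not tested.

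High in C without belonging to muscle by its textbook role was Gbp8, an interferon-inducible GTPase with close relatives next to it, with 5.08, 0 and 806 in N2.3 against 0 in all N2.2 libraries (113.6 at most elsewhere). Its relative Gbp9 had 305, 371 and 1202 in N2.3 against 67.2, 254 and 124 in N2.2. Phyh, a peroxisomal enzyme of phytanic acid breakdown, had 0, 0 and 173 in N2.3 against 0, 1.67 and 2.09 in N2.2, and Hdgfl3 had 0, 0 and 147 against 14.5, 1.67 and 7.31. Other libraries of the series had Phyh and Hdgfl3 too, with medians of 45.4 and 83.6 over the other 34 and up to 171 and 290. N2.3 A and B and all N2.2 libraries lay below these medians. Plagl1, an imprinted zinc finger gene, had 5.08, 22.1 and 295 in N2.3 against 19.8, 24.3 and 7.31 in N2.2. Erbb3, a receptor of the melanocyte list, had 5.08, 6.31 and 61.3 against 4.61, 0.837 and 2.09.

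**Figure D4:**
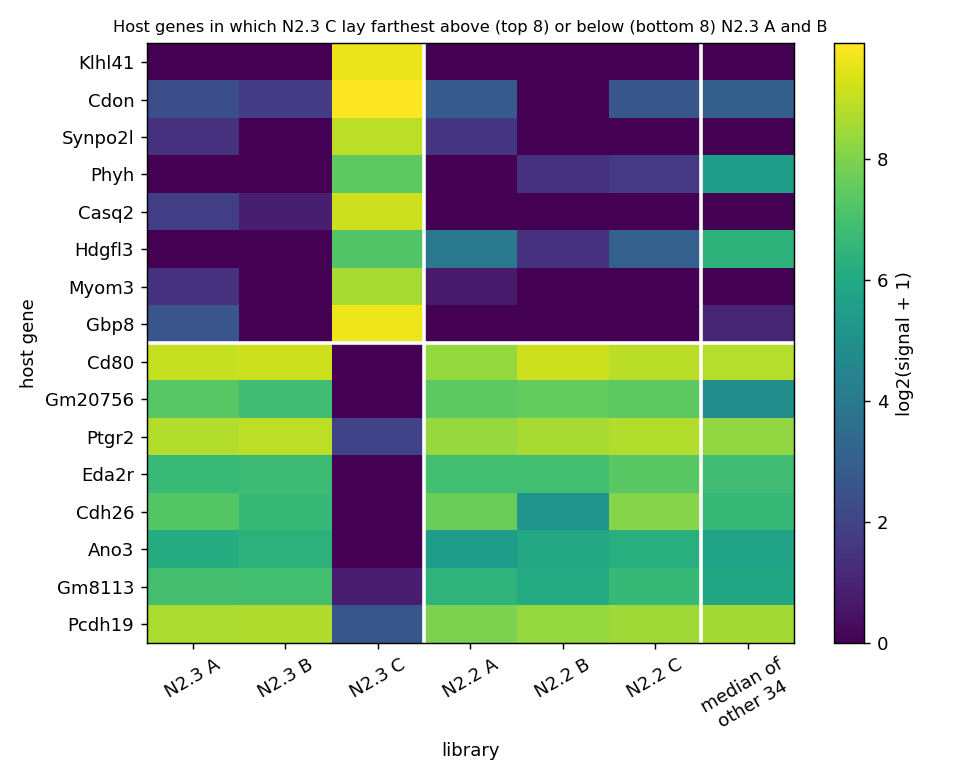
Heat map of log2(signal + 1) for the 8 host genes in which N2.3 C lay farthest above both N2.3 A and B and the 8 in which it lay farthest below, with N2.3 on the left, then N2.2, then the median of the other 34 libraries. C alone among the 6 is bright in the upper block (Klhl41 at 794) and dark in the lower one (Cd80 at 0).

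The 8 genes described next were at or near 0 in C and had signal in N2.3 A and B and in the 3 N2.2 tumours. Cd80, a ligand of the T cell receptors CD28 and CTLA-4, had 533, 575 and 0 in N2.3 against 322, 566 and 477 in N2.2. C was at least 244-fold lower than the mean of A and B, taken at its floor of 3 reads, and no other library of the 39 was under 164. Eda2r, a member of the TNF receptor superfamily and a p53 target, had 104, 110 and 0 in N2.3 against 120, 120 and 164 in N2.2. It was at least 47.1-fold lower in C than in A and B, with no other library under 38.6. These 2 are the genes at 0 in C that had at least 20 in every other library. Ptgr2, a prostaglandin reductase, had 441, 487 and 3.03 in N2.3 against 330, 394 and 435 in N2.2, and Pcdh19, a protocadherin, had 415, 426 and 5.30 against 246, 325 and 366. Cdh26, Ano3 and Gm20756 had 0 in C, against 69.5 to 163 in A and B and 35.1 to 278 in N2.2, and Gm8113 had 0.757. Several of these were also low in at least 1 of the other 34 libraries, where the minimum was 8.28 for Ptgr2, 9.40 for Cdh26, 6.06 for Ano3, 12.3 for Gm8113 and 0 for Gm20756, while Pcdh19 was not under 194 in any of them.

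Some targets of the tumour suppressor p53 were lower in C. Of 6 tested members of the p53 and stress list, 3 lay at least 2-fold below both A and B (50%, against 7.94% of all host genes) and 0 lay at least 2-fold above both (against 7.84%). Ccng1, a cyclin induced by p53, had 1867, 1985 and 321 in N2.3 against 1475, 1656 and 1763 in N2.2. Mdm2, the ubiquitin ligase that both responds to p53 and degrades it, had 1421, 1461 and 403 against 975, 1216 and 1197. Trp53inp1 had 205, 212 and 49.2 against 140, 181 and 193. Cdkn1a was too low to rank, with 6.78, 8.68 and 8.33 in N2.3 against 17.1, 20.1 and 3.13 in N2.2. The stress genes of the list did not follow: Ddit3, a transcription factor of the stress response, had 15.3, 19.7 and 34.8 in N2.3 against 13.2, 13.4 and 6.27 in N2.2, with at most 31.0 in the other 34 libraries. Hspa5, a chaperone of the endoplasmic reticulum, had 7.63, 3.94 and 13.6 in N2.3 against 13.2, 6.69 and 8.36 in N2.2, and in both genes C was the highest of the 6. Between the groups limma called 0 of the 6 (0 at an unadjusted p under 0.05), and edgeR and DESeq2 called 0. The state of the p53 gene is not measured here.

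Single copies repeated this picture and added intergenic ones. A copy of IAPEz-int in an intron of Wdr49 on chromosome 3 had 1825, 1132 and 2.27 in N2.3 against 1806, 20.9 and 2330 in N2.2, so that N2.2 B also lay far below its mates. An MMERVK10D3_I-int copy on chromosome 14 had 231, 240 and 0 in N2.3 against 335, 115 and 256 in N2.2. L1MdV_III and L1MdF_V, neighbouring L1 copies on chromosome 4, had 153 and 143 in A, 177 and 197 in B and 0 and 0 in C, against 29.2 to 90.3 in N2.2. Low values of these copies were not particular to C in the series: the medians in the other 34 libraries were 2.69 for L1MdV_III, 0.376 for L1MdF_V, 4.04 for the IAPEz-int copy and 84.4 for MMERVK10D3_I-int, and each had a minimum of 0. A B1_Mm copy in an intron of Piezo1, a mechanically gated channel, had 89.8, 92.3 and 0 in N2.3 against 0 in all N2.2 libraries, and it reached 22.1 in the other 34. Without C it was called (6.52, SE 0.97, adjusted p = 0.00118), and over all 6 such fits the adjusted p ran up to 0.530. Its median in the other 34 was 0, so that it passed the filter on low values largely through A and B.

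The 3 host genes called without C were Samd5, Gm43965 and Zfp503. Gm43965, a predicted gene, had 22.9 and 11.8 in N2.3 A and B (35.6 in C) against 67.9, 51.9 and 81.5 in N2.2 (-1.94, SE 0.37, adjusted p = 0.0235, and up to 0.283 with another library left out). Zfp503, a zinc finger repressor, had 0 and 0 in A and B (19.7 in C) against 7.25, 2.51 and 8.36 in N2.2, a few reads per library (adjusted p = 0.00135, and up to 0.838 with another library left out). The other 34 libraries had a median of 221 for Zfp503, so that both groups were low.

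The median level of whole chromosomes stood apart in C. Over exon copies with a mean signal of at least 20, the median deviation of each chromosome was taken relative to the median chromosome of its library. Chromosome 1 stood at 0.08, 0.02 and 0.44 (log2) in N2.3 A, B and C, against -0.02, -0.22 and -0.02 in N2.2. Chromosome 15 stood at 0.14, 0.10 and -0.47 in N2.3 against 0.26, 0.24 and 0.26 in N2.2. Chromosome 12 stood at 0.03, 0.11 and -0.36 in N2.3 against 0.02, 0.07 and -0.01 in N2.2, and chromosomes 13 and 16 at -0.27 each in C. A and B differed from each other by at most 0.08 on any chromosome. In C, 10 of 20 chromosomes (1 to 19 and X) lay outside the range of the other 39 libraries, 5 above and 5 below, and no other library had more than 4. DNA copy number was not measured, and whether it moved with these shifts was not tested.

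**Figure D5:**
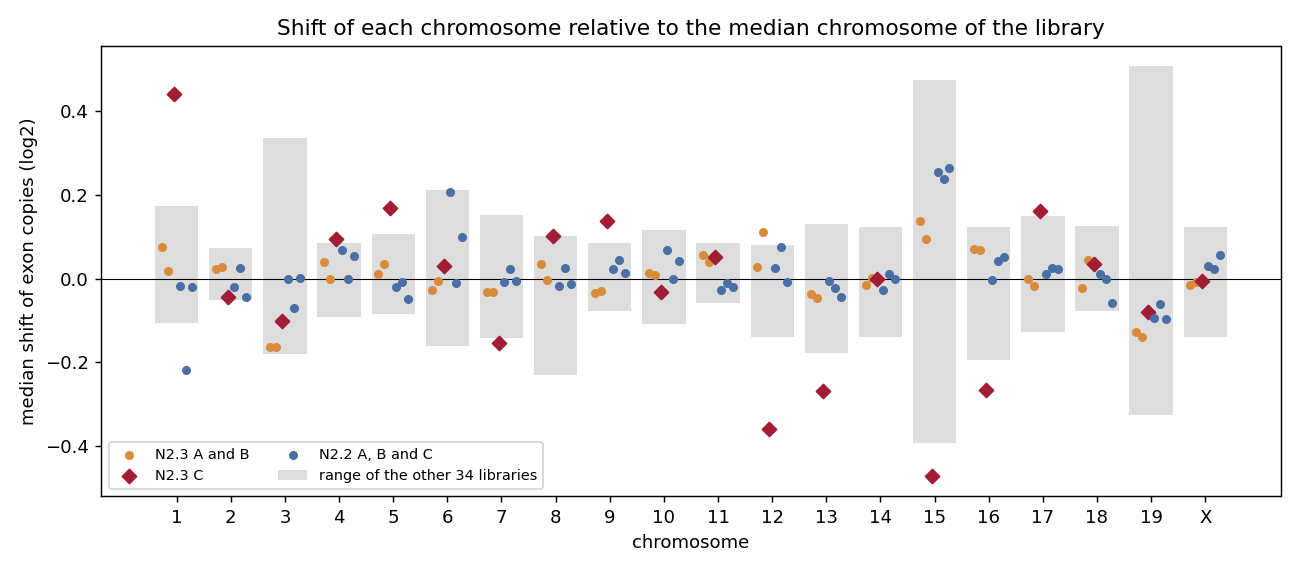
Median shift of exon copies (log2, set against the library's median chromosome) by chromosome, with N2.3 points left of N2.2 points, a diamond for N2.3 C and grey bars for the range of the other 34 libraries. The diamond lies above the bar on chromosome 1 (0.44) and below it on chromosomes 12 (-0.36) and 15 (-0.47), while N2.3 A and B lie close together.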

How the data were processed

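The deposited table holds 1 signal value per annotated repeat copy and library (835636 copies, 40 libraries). Behind each signal the authors had a whole number of reads, scaled by a factor of that library: in the values, low signals are whole multiples of 1 step in every library (100% within 0.1 of a read), and reads were recovered by that step. The submitters' processing notes list featureCounts 1.5.0-p3, StringTie 1.3.3b, HISAT2 2.0.5 and the build mm10. The sources used here do not say how the factors were set, which repeat annotation served, or how strand and multi-mapping reads were treated, so antisense and overlapping genes cannot be told apart.

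Copies were placed with bedtools 2.31.1 by an overlap of at least 10 bases with GENCODE M21. Features whose signal averaged 5 or more across 40 libraries entered limma 3.58.1 (R 4.3.3) as log2(signal + 1), with all 11 groups sharing 1 estimate of spread, two-sided p and Benjamini-Hochberg adjustment within copies, subfamilies or host genes at 0.05. Fold changes on this scale understate changes of low features. Count tests were edgeR 4.0.16, by quasi-likelihood, and DESeq2 1.42.0, both on recovered reads of 39 libraries; the second library of the cell line was left out because its step is too near 1 to be checked. The tests were tried on simulated data.

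Named features are called ones (up to 10 a direction), filled up to 6 a direction with non-overlapping groups at a mean of at least 20, and for tumour C the 8 copies and 8 host genes farthest above and below both mates, copies within 10 kb named once. Members of repeat lists are given by counts. The members, lists and tests were chosen with earlier results of these data known, and the skeletal muscle list after its genes were seen. Floors are 3 reads per library and cover counting error only. An earlier and a later sequencing batch are named without assigning these libraries, so batch was no term.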

Additional observations from a re-analysis of the deposited data

How the results depend on the processing

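The counts called depended on many of the choices. The 4 called copies became 2 with TMM scaling, 10 with a pseudocount of 0.5, 25 with one of 5, 251 with no filter on low values, 0 with the 6 libraries alone, 0 with intron share as a covariate, 27 with edgeR and 65 with DESeq2, and 0 to 33 when 1 library was left out. The 3 called subfamilies became 0 with the 6 libraries alone, 5 with edgeR, 6 with DESeq2 and 0 with copies outside exons alone, and 0 to 4 when 1 library was left out. The 5 called host genes became 1 with TMM scaling, 136 with no filter, 0 with the 6 libraries alone, 1 with intron share as a covariate, 19 with edgeR and 68 with DESeq2, and 1 to 21 when 1 library was left out. The cause was not tested. The 1298 copies in which N2.3 C departed at least 4-fold became 428 with a pseudocount of 5 and 365 among the 10091 copies whose signal averaged 20 or more, and N2.3 C kept the most departing host genes of the 6 libraries with TMM scaling (280) and at a mean of at least 20 (163). With the tumour letter as a replicate block, 0 copies, 0 subfamilies and 0 host genes were called. The letters name different tumours, and the labels do not say whether equal letters of the 2 passages are related. Deviations from the group mean correlated across copies at -0.05, 0.05 and 0.03 for letters A, B and C, and at -0.09 to 0.08 for unequal letters. Deviations within a group of 3 sum to 0, so these values cannot decide whether tumours of the same letter are related. The difference in intron share ranged from -3.61 to -1.53 percentage points when 1 library was left out. Reversed estimates were L1M4a1 outside exons (-0.37), MMVL30-int with intron share as a covariate (-0.13) and B2_Mm2 with the same covariate (0.048). When 1 library was left out, IAPEz-int ranged from -0.712 to 0.017, reversed without N2.2 C, and MMVL30-int from -0.047 to 0.423, reversed without N2.3 A or B. Counts of 0 to a few reads limit the copies that were low in both groups.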
